A study of Mus musculus with 18 samples.

Results

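Skeletal muscle of Nurr1 transgenic mice on a high-fat diet (HFD) was compared with muscle of their wild-type controls on the same diet. The group labels are HFD-Nurr1-mTg and HFD-WT, and every library carrying either label was used, 3 in each group and 6 of the 18 libraries of the series. Both groups were fed HFD for 10 weeks, so HFD is shared by the controls and no chow-fed transgenic group was analysed here. The labels give skeletal muscle without naming the muscle, and call the libraries of each group biological replicates 1 to 3. No source used here gives the promoter that drives the transgene, the number of founder lines, or the age, sex, litter and strain of the animals. The other 12 libraries are wild-type muscle on normal chow or HFD, each with and without a drug named AQ in their water. They entered the estimate of the spread and serve below as reference levels. Their untreated HFD group, labelled WT-HFD, is a second wild-type HFD group next to the HFD-WT controls.

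NURR1, the product of Nr4a2, is an orphan nuclear receptor whose activity follows mainly from its amount rather than from a classical hormone. It binds DNA as a monomer at a response element called the NBRE, and also pairs with retinoid X receptors. In skeletal muscle the NR4A receptors are known as genes switched on by exercise and adrenergic signalling, and as regulators of fuel use.

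The labelled tissue was checked against its defining genes. The fast myosin gene Myh4 lay between 43980 and 47790 CPM in transgenic muscle and between 38920 and 55700 CPM in control muscle. CPM here are read counts times a factor per library, as deposited. Their totals are not equal, and ran from 959649 to 1071540 in the 6 libraries. The skeletal actin gene Acta1 lay at 35360 to 42310 and 38410 to 47970 CPM. The 6 libraries held 13347500 to 15476586 reads in the transgenic and 13498195 to 14944684 reads in the control group, and 3 reads were worth 0.193 to 0.238 CPM. In bulk tissue, fewer cells of a type and less RNA per cell cannot be told apart.

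Nr4a2 stood at 18.8, 30.1 and 19.8 CPM in the transgenic libraries, replicates 1 to 3 in that order, and at 1.86, 2.30 and 1.57 CPM in the controls. All transgenic libraries were above every one of the 15 other libraries, which reached 4.79 CPM at most. The log2 fold change was 3.02 ± 0.27 (SE; limma adjusted p = 7.91e-06). Nr4a2 lies at chr2:57106830-57124003 (GRCm38, minus strand). The table is by symbol, so transgene reads and endogenous reads cannot be told apart. The related receptor gene Nr4a1 stood at 111, 110 and 128 CPM in transgenic and 184, 258 and 255 CPM in control muscle. The groups did not overlap, and the difference missed the threshold (-0.98 ± 0.22, adjusted p = 0.0557). Without control replicate 1 it passed in limma (-1.14, adjusted p = 0.0431). It also passed in DESeq2 (adjusted p = 0.00121), in the limma fit of the 2 groups (0.00712) and with a replicate block in the 6 libraries (0.00469). Array weights (0.012), plain CPM (0.0265) and a clock gene covariate described below (0.044) gave a call too. No call came from edgeR or from leaving out any other single library. In WT-HFD muscle Nr4a1 averaged 164 CPM. Nr4a3, the remaining member, lay at 2.81, 0.333 and 0.468 CPM against 1.99, 1.98 and 2.84 CPM, so its groups overlapped (adjusted p = 0.610). Of 6 retinoid X and retinoic acid receptor genes, 0 passed in limma, edgeR and DESeq2, and 1 had an unadjusted p under 0.05 (limma median log2 fold change -0.06).

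Of 12524 genes tested, 75 (0.599%) passed at an adjusted p under 0.05 and are called below: 48 (0.383%) higher and 27 (0.216%) lower in transgenic muscle. An unadjusted p under 0.05 was reached by 1121 genes (8.95%), 4.36% higher and 4.59% lower. In 28 of the higher and 14 of the lower genes the group means differed by at least 2-fold. The groups did not overlap in any of the 75, against 14.3% of all genes tested (6.99% higher and 7.35% lower). In 41 of the 48 higher genes the 3 transgenic libraries were also above each of the 15 other libraries, where 1.52% of tested genes had that pattern. In 19 of the 27 lower genes they were below all 15, against 1.32%. The 75 genes were picked by a fit of these same values, which favours such patterns. These counts are therefore a description only. The median log2 fold change over all tested genes was -0.0009. Leaving out transgenic replicate 1 or 2 lowered the number of called genes to 46 and 43, while 72 were called without transgenic replicate 3. DESeq2 called 171 genes, among them all 75.

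**Figure D1:**
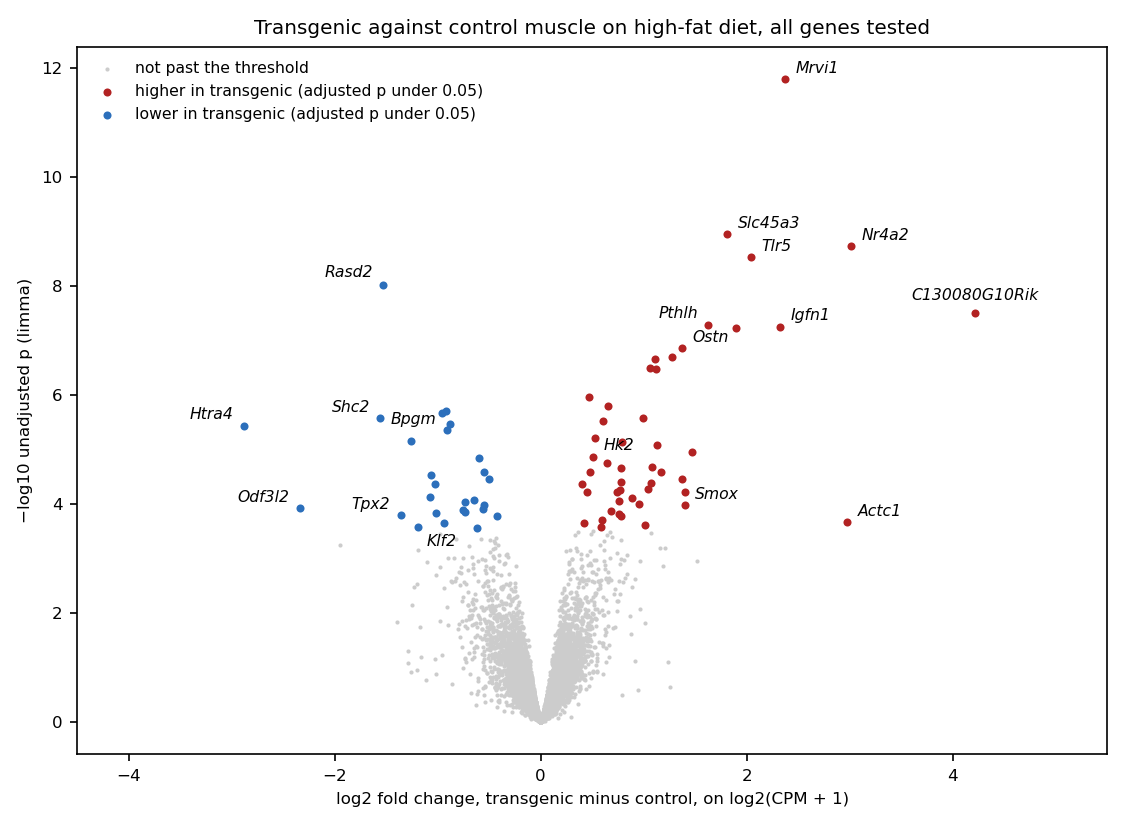
Log2 fold change (transgenic minus control, on log2(CPM + 1)) of each of the 12524 tested genes on the x axis against −log10 of the unadjusted limma p on the y axis; red points are the 48 genes called higher, blue the 27 called lower. Mrvi1 lies highest on the y axis, and Htra4 lies farthest to the left at -2.88.

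The sequence before the start site of the called genes was searched for the NBRE, written AAAGGTCA, and for the AGGTCA core that it contains, on both strands. RefSeq windows (GRCm38.p6) of 250 bases before to 50 bases after a start were at hand for 54 of the 75 called genes. The NBRE was found in 2 of 37 called higher genes, Mrvi1 and Aimp2, and in 0 of 17 called lower genes. It was present in 1.12% of the tested genes with a window and in 1.51% of all windows. The core was found in 10 of the 37 higher genes (27.0%), in 3 of the 17 lower genes (17.6%), in 14.9% of tested genes with a window and in 16.3% of all windows. The 250 bases before the start are shown for both NBRE matches and for the core matches of Tlr5 and Slc45a3, the next genes by size of increase among those with a core, on the strand of the gene with the match in capitals. The windows are chr7:110946188-110946437 (minus strand, Mrvi1), chr5:143909840-143910089 (minus, Aimp2), chr1:182954538-182954787 (plus, Tlr5) and chr1:131970359-131970608 (plus, Slc45a3).
Mrvi1: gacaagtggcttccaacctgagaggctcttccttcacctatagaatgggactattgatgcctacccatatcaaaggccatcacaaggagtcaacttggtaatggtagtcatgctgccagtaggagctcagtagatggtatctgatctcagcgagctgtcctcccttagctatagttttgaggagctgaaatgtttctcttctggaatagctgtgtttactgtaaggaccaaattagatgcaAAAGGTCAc
Aimp2: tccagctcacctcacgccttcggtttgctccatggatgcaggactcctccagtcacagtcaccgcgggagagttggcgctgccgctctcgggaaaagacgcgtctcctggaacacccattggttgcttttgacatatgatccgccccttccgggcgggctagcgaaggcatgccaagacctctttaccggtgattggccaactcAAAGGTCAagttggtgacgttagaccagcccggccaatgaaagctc
Tlr5: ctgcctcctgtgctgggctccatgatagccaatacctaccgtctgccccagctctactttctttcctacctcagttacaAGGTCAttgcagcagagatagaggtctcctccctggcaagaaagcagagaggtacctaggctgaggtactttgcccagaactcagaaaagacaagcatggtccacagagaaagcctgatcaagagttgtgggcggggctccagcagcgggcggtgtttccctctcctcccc
Slc45a3: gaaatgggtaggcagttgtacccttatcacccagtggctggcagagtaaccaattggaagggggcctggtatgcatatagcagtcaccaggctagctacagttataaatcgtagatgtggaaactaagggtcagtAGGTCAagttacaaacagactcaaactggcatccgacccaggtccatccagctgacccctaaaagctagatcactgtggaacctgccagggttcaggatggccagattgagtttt
The Mrvi1 match begins 9 bases before the start and that of Aimp2 begins 46 bases before it. Mrvi1 and Slc45a3 have 2 windows each, and the one shown belongs in both to a start inside the gene. A match in a window of this length is a description of its letters, and binding was not measured.

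The called gene with the smallest p was Mrvi1, which encodes a substrate of cGMP-dependent protein kinase that binds the inositol trisphosphate receptor of the endoplasmic reticulum. It stood at 49.1, 47.0 and 56.4 CPM in transgenic and 10.4, 9.21 and 7.54 CPM in control muscle. The difference was far larger than the spread in either group, and no other library exceeded 14.2 CPM (2.37 ± 0.14, limma adjusted p = 2.02e-08). Of 16 genes of nitric oxide and cGMP signalling, Mrvi1 was the 1 called, and the list median was 0.01.

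Single genes with roles in signalling were called in both directions, a grouping made after their values were seen. Pthlh, the gene of parathyroid hormone-related protein, a secreted ligand, stood at 10.7, 10.0 and 10.4 CPM against 2.83, 2.46 and 2.76 CPM. Its transgenic libraries lay within 1 CPM of each other and above all others (1.63 ± 0.18, limma adjusted p = 8.41e-05). Arrb1, which encodes a beta-arrestin that uncouples activated receptors, rose to 64.9 ± 1.8 CPM (SD, n = 3) from 46.4 ± 2.4 CPM. Adrbk2, a kinase gene whose product marks such receptors for arrestin, fell from 11.4, 11.7 and 10.5 CPM to 5.84, 5.65 and 4.88 CPM (-0.92 ± 0.13, adjusted p = 0.00144). Ppp1r1a, an inhibitor of protein phosphatase 1 that acts once protein kinase A has phosphorylated it, fell from 59.0, 77.7 and 71.0 CPM to 34.6, 34.7 and 42.0 CPM. Ppp1r14c, a further phosphatase 1 inhibitor gene, fell from 98.3 ± 9.5 to 67.1 ± 11 CPM. Rasd2, the gene of the small GTPase Rhes, fell from 134, 108 and 112 CPM to 37.1, 40.0 and 43.1 CPM, again without overlap (-1.53 ± 0.15, adjusted p = 2.44e-05). Shc2, an adaptor of receptor tyrosine kinases, fell from 14.3, 25.4 and 22.3 CPM to 5.02, 5.85 and 7.95 CPM. Of 21 genes in the list of cAMP signalling and its targets, Pthlh alone was called in limma, with a list median of 0.00. Arrb1 lost its call without transgenic replicate 2 or control replicate 1 (adjusted p up to 0.0548). Ppp1r14c lost it without transgenic replicate 1 or 2 or control replicate 2 or 3 (adjusted p up to 0.154).

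Secreted factors of muscle rose in 2 of 16 list members, Ostn and Pthlh, with a list median of -0.05. Ostn encodes musclin, also called osteocrin, a peptide that occupies the natriuretic peptide clearance receptor. It stood at 127, 138 and 116 CPM in transgenic and 47.8, 54.6 and 43.4 CPM in control muscle (1.37 ± 0.16, limma adjusted p = 0.000174). The highest of all other libraries was at 60.0 CPM. Npr3, the gene of the clearance receptor, had overlapping groups at 21.4 to 30.7 and 20.1 to 44.7 CPM. This gene was looked at after the values of Ostn were seen. Wfikkn2, whose secreted product binds myostatin, fell to 10.8 to 13.2 CPM from 18.2 to 19.9 CPM, a call that was lost without any single one of the 6 libraries (adjusted p 0.0551 to 0.219).

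Genes of the contractile apparatus showed 2 large increases. Igfn1, a gene of a sarcomeric protein of immunoglobulin and fibronectin domains, stood at 125, 209 and 115 CPM against 30.6, 35.6 and 19.9 CPM (2.33 ± 0.26, limma adjusted p = 8.41e-05). Actc1, the cardiac alpha actin gene that skeletal muscle uses mainly before birth, stood at 2444, 4985 and 1651 CPM against 296, 395 and 351 CPM (2.97 ± 0.64, adjusted p = 0.0394). Transgenic replicate 2 was the highest library for both genes. Actc1 kept its call only without transgenic replicate 3, and the other omissions gave adjusted p of 0.110 to 0.219. The actin genes are near copies of each other, and no source used here says how reads shared between them were counted. Igfn1 and Actc1 were the 2 called of 14 tested genes of developmental and cardiac sarcomeres, whose median was -0.01. The embryonic myosin gene Myh3 had overlapping groups at 5.32 to 13.9 and 5.53 to 8.49 CPM, and was looked at after the values of Actc1 were seen. Among 15 fast fibre genes and 16 slow fibre genes limma, edgeR and DESeq2 each called 0, with 1 and 0 at an unadjusted p under 0.05 in limma (medians -0.09 and -0.07). The same count of 0 from all 3 tools held for 23 genes of calcium handling, 15 of the neuromuscular junction and 16 of atrophy and denervation, with 7, 3 and 3 at an unadjusted p under 0.05. Trim63 and Fbxo32, ubiquitin ligase genes of muscle wasting, stood at 148 to 215 against 225 to 274 CPM and at 170 to 337 against 352 to 466 CPM (adjusted p = 0.231 and 0.282).

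Genes of protein modification and structure in muscle were also called. Mettl21c, a lysine methyltransferase gene active mainly in muscle, stood at 239, 213 and 178 CPM against 61.6, 112 and 74.5 CPM (1.37 ± 0.25, limma adjusted p = 0.0112). Smyd2, a further lysine methyltransferase gene, rose from 260 ± 40 to 446 ± 58 CPM. Sntb1, of the syntrophins that anchor proteins at the dystrophin complex, rose from 3.91 ± 0.64 to 8.71 ± 0.60 CPM. Lrrc30, of a leucine-rich repeat protein, fell from 128, 131 and 177 CPM to 72.8, 64.8 and 84.6 CPM. Fat3, an atypical cadherin gene, rose from 2.76, 2.06 and 1.87 CPM to 8.35, 8.85 and 6.68 CPM. Golga7b, an accessory protein of palmitoylation, stood at 19.0, 38.8 and 16.7 CPM against 6.55, 9.21 and 8.96 CPM, with transgenic replicate 2 again the highest. Mettl21c lost its call without transgenic replicate 1 or 2 or control replicate 1 or 3 (adjusted p up to 0.0699), Golga7b without transgenic replicate 2 or control replicate 1 (up to 0.0845), and Smyd2 without transgenic replicate 3 or control replicate 1 (up to 0.0729).

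**Figure D2:**
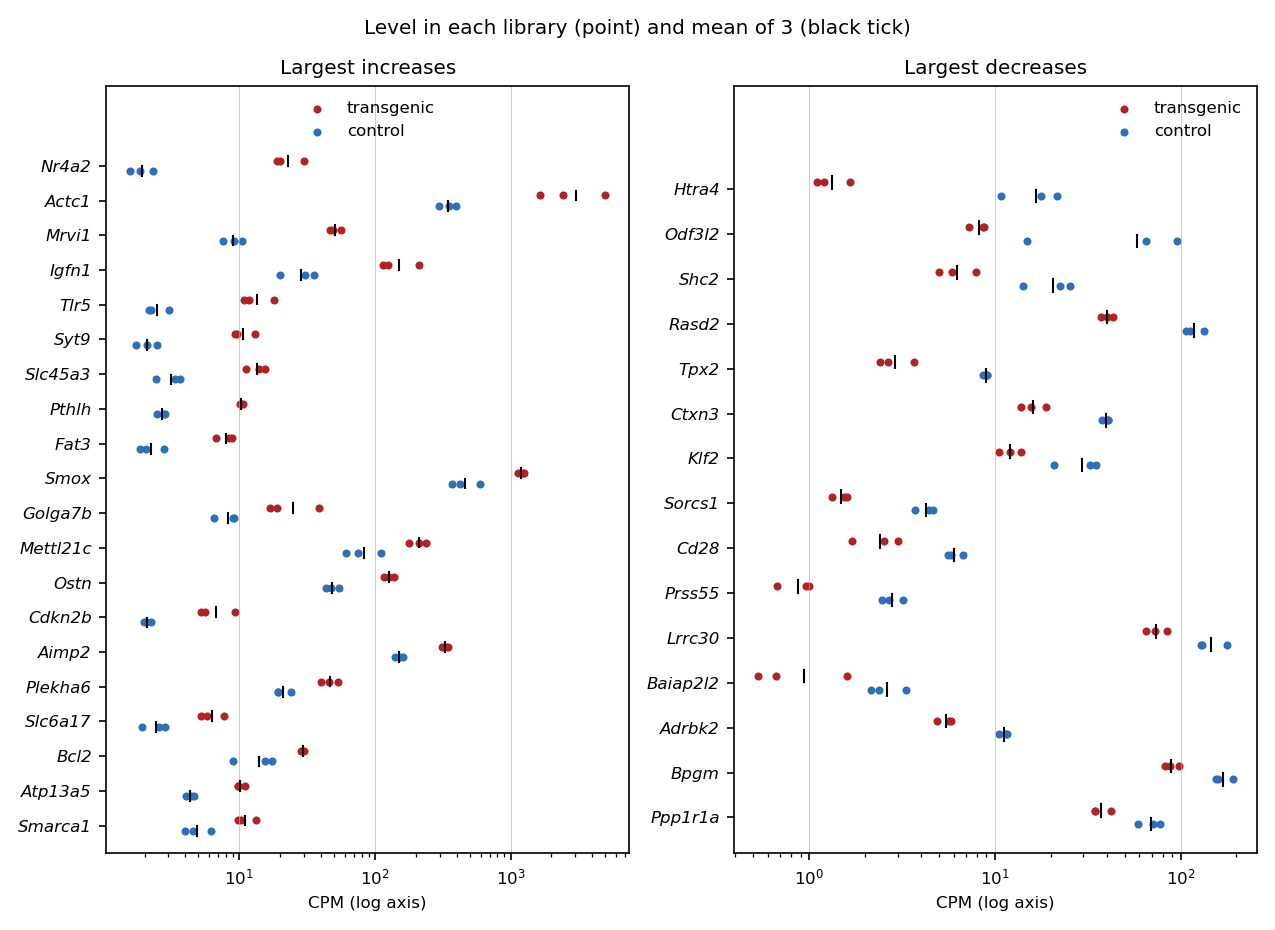
CPM on a log x axis of the 20 genes with the largest increases (left) and the 15 with the largest decreases (right) among called genes with a group mean of at least 2 CPM; gene models with clone names, such as C130080G10Rik, are not drawn; red points are the 3 transgenic and blue points the 3 control libraries, and black ticks the group means. The groups do not overlap in any of these genes, and Actc1 spans 1651 to 4985 CPM in the transgenic libraries.

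Sugar metabolism held both increases and a decrease. Hk2, the insulin-regulated hexokinase that traps glucose in muscle, stood at 585, 544 and 543 CPM in transgenic and 358, 387 and 431 CPM in control muscle (0.51 ± 0.09, limma adjusted p = 0.00565). The WT-HFD libraries averaged 552 ± 31 CPM, close to the transgenic mean of 557 ± 24 CPM and above the control mean of 392 ± 37 CPM. Bpgm, whose enzyme diverts a glycolytic intermediate into bisphosphoglycerate, fell from 154, 192 and 159 CPM to 87.3, 82.5 and 97.5 CPM (-0.91 ± 0.14, adjusted p = 0.00230). The transgenic values were below all 15 other libraries. Bpgm was the 1 called of 14 glycolysis genes, 12 of which had log2 fold changes above 0, with a median of 0.33 beside -0.0009 over all genes. An unadjusted p under 0.05 was reached by 9 of them upward and by 2 downward. Pfkm, the muscle phosphofructokinase gene, chosen here after its values were seen, stood at 6042, 5968 and 6353 CPM against 3809, 4703 and 4711 CPM (0.48 ± 0.12, adjusted p = 0.0853). Summed over the 14 genes, transgenic libraries lay at 43020 to 46000 CPM and controls at 30240 to 36850 CPM. Most of that sum came from Aldoa (means 17616 and 13982 CPM), Eno3 (8724 and 6169 CPM) and Pfkm, so it does not stand for all 14 genes. Gapdh and Pgk1, which are among the 9 upward genes, averaged only 8.47 and 57.7 CPM in transgenic and 4.57 and 41.4 CPM in control muscle. Of the glycolysis genes edgeR called 0 higher and 1 lower, and DESeq2 3 higher and 1 lower. Rpia, an enzyme gene of the pentose phosphate pathway, rose from 18.2 ± 0.85 to 25.3 ± 1.3 CPM, and lost its call without transgenic replicate 2 or 3 or control replicate 2 or 3 (adjusted p up to 0.0864). Gys2, the glycogen synthase gene of liver, had 32, 27 and 20 reads against 5, 3 and 4 reads, and passed (adjusted p = 0.000297). Only its transgenic libraries reached 1 CPM, and the 15 others held 0.350 CPM at most. It thus entered the test only through the group in which it is high, and its adjusted p carries no weight. The muscle form Gys1, set beside it after its values were seen, had overlapping groups at 735 to 782 and 611 to 794 CPM. Of 18 glycogen genes limma and edgeR called 0 and DESeq2 1, with 2 at an unadjusted p under 0.05. Stbd1, which tethers glycogen to membranes, stood at 64.5, 121 and 56.6 CPM against 41.2, 32.5 and 42.4 CPM (adjusted p = 0.103), and passed in DESeq2 (adjusted p = 0.0387). Slc16a3, the exporter of lactate, stood at 546, 611 and 608 CPM against 293, 392 and 439 CPM and missed the threshold (0.67 ± 0.15, adjusted p = 0.0531). It passed without control replicate 3 (0.79, adjusted p = 0.0354) and in DESeq2 (adjusted p = 0.00502). Glut4 (Slc2a4), the insulin-responsive glucose carrier, looked at after its values were seen, had overlapping groups (0.13 ± 0.11). Of 16 insulin signalling genes all 3 tools called 0, and 0 had an unadjusted p under 0.05.

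Fat and mitochondrial genes gave few calls. Of 32 genes that take up and oxidise fatty acids, 8 lay above a log2 fold change of 0 and 24 below it, with a median of -0.10, and 0 passed in the 3 tools (1 at an unadjusted p under 0.05). The count was also 0 in the 3 tools for 16 lipid droplet genes, 23 genes of fatty acid and cholesterol synthesis, 17 of the citrate cycle, 24 of the respiratory chain and 15 regulators around PGC-1, with 0, 4, 1, 2 and 2 at an unadjusted p under 0.05. Their medians lay between -0.06 and 0.02. Srebf1, the transcription factor of lipid synthesis, stood at 45.1, 128 and 64.8 CPM against 133, 135 and 139 CPM (-0.91 ± 0.30, adjusted p = 0.277). Transgenic replicate 2 lay near the controls, and without it Srebf1 passed (-1.32, adjusted p = 0.0406). Aldh6a1, an enzyme gene of valine breakdown, fell from 176, 172 and 206 CPM to 134, 137 and 139 CPM (-0.43 ± 0.09, limma adjusted p = 0.0312). It was the 1 called of 19 genes of branched-chain amino acid breakdown, 16 of which lay below 0 (median -0.10), and its call was kept only without control replicate 2 (adjusted p otherwise 0.0609 to 0.166). Abcb4, a transporter of phosphatidylcholine, fell from 205 ± 18 to 135 ± 21 CPM. Pla2g7, which inactivates platelet-activating factor, fell from 85.8 ± 10 to 51.6 ± 9.7 CPM, a call lost without transgenic replicate 1 or 2 or control replicate 2 or 3 (adjusted p up to 0.129).

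Smox, the gene of spermine oxidase, stood at 1245, 1226 and 1137 CPM in transgenic and 371, 596 and 425 CPM in control muscle. The 15 other libraries lay between 371 and 851 CPM, so all 3 transgenic values were above them (1.40 ± 0.28, limma adjusted p = 0.0228). Of 9 tested genes of polyamine metabolism it was the 1 called, and the list median was 0.00. Odc1, which makes the first polyamine of the pathway, and Sat1, which acetylates spermine for export, were looked at after the values of Smox were seen and had overlapping groups (-0.14 ± 0.21 and 0.00 ± 0.14). Smox kept its call only without control replicate 2, and the other omissions gave adjusted p of 0.0563 to 0.111.

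Genes with roles in protein synthesis, growth and cell survival were called as well. Aimp2, a scaffold of the complex that holds aminoacyl-tRNA synthetases together, stood at 311, 348 and 332 CPM against 153, 160 and 141 CPM (1.12 ± 0.18, limma adjusted p = 0.00373). Eif4e, the cap-binding initiation factor gene, rose from 46.3 ± 3.6 to 61.2 ± 2.4 CPM. Cdkn2b, an inhibitor of cyclin-dependent kinases, stood at 5.62, 9.25 and 5.21 CPM against 1.99, 2.06 and 2.24 CPM (1.27 ± 0.16, adjusted p = 0.000230). Bcl2, the founding anti-apoptotic gene, stood at 29.2, 28.7 and 30.0 CPM against 15.3, 8.97 and 17.4 CPM. Tpx2, of a spindle protein, fell from 8.67, 9.05 and 9.11 CPM to 2.66, 2.39 and 3.67 CPM. The other 6 tested proliferation genes were not called, and the list median was 0.02. Nedd4l, a ubiquitin ligase gene, rose from 33.6 ± 1.3 to 53.0 ± 4.4 CPM, and Smarca1, of a chromatin remodeller, rose to 11.1 ± 1.9 from 4.88 ± 1.1 CPM. Nab1, a corepressor of the EGR factors, rose from 11.8 ± 1.5 to 18.1 ± 1.3 CPM. Aldh1a2, which makes retinoic acid, rose from 11.2 ± 0.81 to 20.3 ± 5.6 CPM, with 22.5, 24.5 and 14.03 CPM in the transgenic libraries. Igf1, a growth factor gene, stood at 43.4, 103 and 42.0 CPM against 35.2, 25.4 and 29.8 CPM and did not pass (adjusted p = 0.154). Calls were lost without transgenic replicate 1 or 2 or control replicate 1 for Eif4e (adjusted p up to 0.0797), without transgenic replicate 1 or 2 or control replicate 2 for Bcl2 (up to 0.0586), without transgenic replicate 2 for Nedd4l (0.0548), and without transgenic replicate 1 or control replicate 2 or 3 for Smarca1 (up to 0.0987). Tpx2 and Aldh1a2 kept theirs only without transgenic replicate 3 (otherwise up to 0.154 and 0.197), and Nab1 only without control replicate 1 (otherwise up to 0.228).

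Receptors, transporters and vesicle proteins were among the called genes too. Tlr5, the receptor of bacterial flagellin, stood at 10.8, 18.1 and 11.8 CPM against 3.02, 2.22 and 2.17 CPM (2.05 ± 0.19, limma adjusted p = 9.32e-06). Syt9, a synaptotagmin gene of vesicle fusion, stood at 13.0, 9.31 and 9.55 CPM against 1.73, 2.46 and 2.09 CPM, and the solute carrier gene Slc45a3 at 14.04, 15.4 and 11.2 CPM against 2.44, 3.33 and 3.66 CPM. None of these groups overlapped. Atp13a5, of an ATPase, rose from 4.35 ± 0.29 to 10.2 ± 0.69 CPM. Slc6a17, a transporter of neutral amino acids, rose from 2.42 ± 0.47 to 6.25 ± 1.3 CPM, and Slc16a6, of the monocarboxylate transporter family, from 14.3 ± 2.9 to 29.6 ± 10 CPM. Sorcs1, a sorting receptor gene, fell from 4.25 ± 0.47 to 1.49 ± 0.14 CPM. Htra4, a secreted serine protease gene, fell from 10.8, 21.5 and 17.6 CPM to 1.11, 1.20 and 1.67 CPM (-2.88 ± 0.44, adjusted p = 0.00200). Ctxn3 fell from 40.5, 40.8 and 37.9 CPM to 15.6, 13.8 and 18.8 CPM, below all 15 other libraries. Dnase1 had 2, 3 and 4 reads against 30, 21 and 12 reads (adjusted p = 0.0124). Its call was lost without transgenic replicate 1 or 2 or control replicate 1 or 2 (adjusted p up to 0.0755). Slc6a17 lost its call without transgenic replicate 1 or control replicate 2 (up to 0.0639), Slc16a6 without transgenic replicate 1 or 2 or control replicate 1 or 3 (up to 0.131), and Sorcs1 in all omissions but that of control replicate 2 (up to 0.0949).

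Apart from C130080G10Rik, which is described beside Actc1, the remaining called higher genes had log2 fold changes of 0.42 (Zc3h8) to 1.17 (D430041D05Rik). Plekha6 stood at 39.8, 53.7 and 46.0 CPM against 19.4, 19.4 and 23.9 CPM (1.11 ± 0.14, limma adjusted p = 0.000234). Ift122, of the machinery that moves cargo in cilia, rose from 19.9 ± 1.4 to 35.0 ± 3.9 CPM, and Polk, a DNA polymerase gene of lesion bypass, from 17.9 ± 3.4 to 30.5 ± 4.5 CPM. Rhpn2, Rhbdl1, Mlf1, Larp6, Mrgprh, Abhd13, Trim16 and Tmem56 also rose. Prss55 fell from 3.21, 2.70 and 2.46 CPM to 0.961, 0.998 and 0.668 CPM, and Baiap2l2 from 3.34, 2.38 and 2.17 CPM to 0.665, 0.532 and 1.60 CPM. Gcnt2, Lrtm1, B3galt1 and A830010M20Rik also fell. Plekha6, Ift122, Abhd13, Trim16 and Tmem56 kept their calls without each single library. Polk lost its call without transgenic replicate 1 or 2 or control replicate 1 or 3 (adjusted p up to 0.119), Prss55 without any one of the 6 libraries (0.0701 to 0.123), and Baiap2l2 in all omissions but that of transgenic replicate 3 (up to 0.219). The other genes of this set lost theirs without at least 1 library.

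Called genes lay next to each other at 4 places, with gaps under 100 kb in GENCODE M21 (GRCm38). Actc1 (chr2:114047282-114053548, minus strand) and C130080G10Rik (chr2:114054335-114064868, plus strand, annotated as antisense) start back to back with a gap of 787 bases. C130080G10Rik stood at 39.5, 69.9 and 23.2 CPM in transgenic and 1.16, 0.873 and 1.64 CPM in control muscle (4.22 ± 0.45, limma adjusted p = 6.55e-05). Both genes were highest in transgenic replicate 2 and lowest of the transgenic libraries in replicate 3. Among the WT-HFD libraries both were highest in replicate 1, at 831 CPM for Actc1 and 6.22 CPM for C130080G10Rik. The next tested gene, Aqr, did not pass (0.05). Whether reads were counted by strand is stated in no source used here.

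C2cd4c, Shc2 and Odf3l2 lie in a row on the minus strand of chromosome 10, with gaps of 4026 and 1608 bases, and all were lower. Odf3l2, named for its likeness to a sperm tail protein, stood at 8.79, 7.25 and 8.62 CPM against 14.9, 95.7 and 64.8 CPM (-2.34 ± 0.48, limma adjusted p = 0.0259). Control replicate 1 was the control nearest the transgenic libraries for both Odf3l2 and Shc2. C2cd4c had 9, 5 and 8 reads against 16, 20 and 28 reads. The neighbours Mier2 (-0.18) and Tpgs1 (-0.21) did not pass. Odf3l2 and C2cd4c kept their calls only without control replicate 1 (otherwise adjusted p up to 0.155 and 0.156).

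Meg3 and Rian are maternally expressed noncoding RNA genes of the imprinted Dlk1 domain on chromosome 12, 32214 bases apart, and both rose. Rian stood at 21.0, 21.2 and 20.7 CPM against 13.2, 10.3 and 11.9 CPM (0.79 ± 0.13, limma adjusted p = 0.00345). Meg3 stood at 54.8, 50.9 and 44.9 CPM against 34.2, 31.6 and 32.6 CPM (0.60 ± 0.13, adjusted p = 0.0368), and kept its call only without transgenic replicate 3 (otherwise 0.0775 to 0.184). All transgenic values of both genes were above all 15 other libraries. Dlk1 (-0.18) and Mirg (0.19), the other tested genes of the domain, did not pass. Tom1l2 and Lrrc48 start back to back on chromosome 11 with a gap of 424 bases. Tom1l2, of a protein of endosomal sorting, rose from 195 ± 16 to 269 ± 7.1 CPM (adjusted p = 0.000905) and Lrrc48 from 2.79 ± 1.2 to 6.39 ± 0.43 CPM. Lrrc48 kept its call only without control replicate 2 (otherwise up to 0.186).

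**Figure D3:**
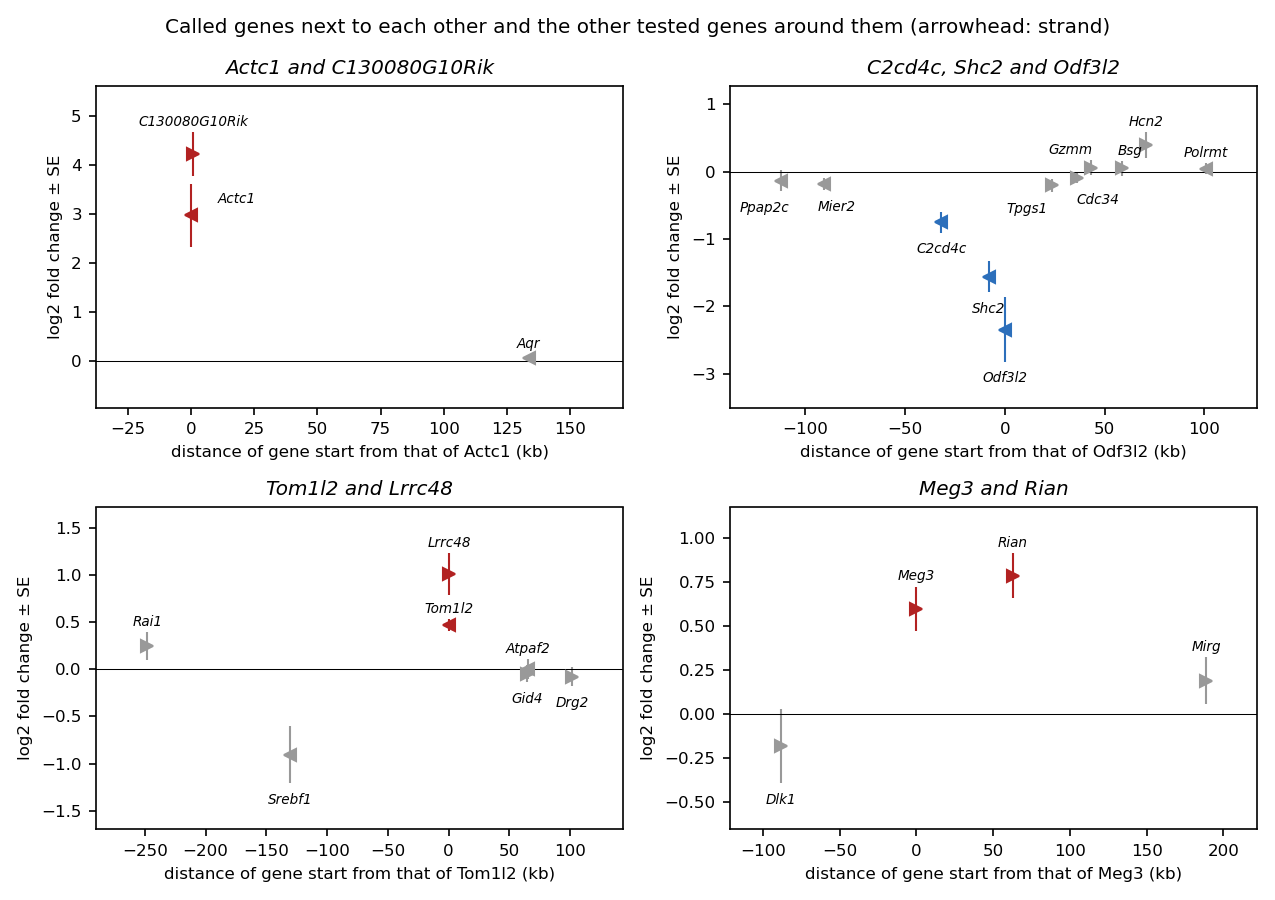
Log2 fold change ± SE of called genes that lie next to each other and of the other tested genes around them, against the distance of each gene's start from that of the gene named on the x axis, in kb; red is called higher, blue called lower, grey not called, and arrowheads point along the strand. Actc1 and C130080G10Rik reach 2.97 and 4.22, and Aqr lies at 0.05.

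Markers of other cells and states were measured beside these genes. Klf2, a flow-responsive transcription factor gene of endothelium that is also an early response gene, fell from 20.9, 35.2 and 32.4 CPM to 13.8, 12.04 and 10.5 CPM (-1.19 ± 0.26, limma adjusted p = 0.0453). The call was kept only without control replicate 1 (otherwise 0.0936 to 0.226). It was the 1 called of 18 endothelial markers, whose summed level overlapped at 693 to 756 CPM in transgenic and 669 to 760 CPM in control muscle. All 20 early response genes tested had log2 fold changes below 0 (median -0.50), with 6 at an unadjusted p under 0.05. Limma called Klf2 among them, edgeR called 0 and DESeq2 2, and Klf2 also missed the threshold with a pseudocount of 4, a filter of 5 CPM and the GC correction. All 16 glucocorticoid-responsive genes also lay below 0 (median -0.47), with 0 called in limma and edgeR, 2 in DESeq2 and 5 at an unadjusted p under 0.05. Sgk1, a kinase gene of that list, stood at 97.4, 97.1 and 93.7 CPM against 115, 207 and 311 CPM (adjusted p = 0.140). Control replicate 3 lay highest for it, and without control replicate 1 it passed (-1.39, adjusted p = 0.0122), as it did in DESeq2 (0.0449) and with array weights (0.0345). Arntl, the clock activator gene, stood at 13.9, 12.9 and 13.6 CPM against 27.7, 28.8 and 24.1 CPM (adjusted p = 0.179), and passed in the fit of the 2 groups (adjusted p = 0.00185), in that of the 6 libraries with a replicate block (0.00600) and with array weights (0.0425). The clock output Dbp stood at 115 to 141 against 76.3 to 94.1 CPM. With the log2 difference of Arntl and Dbp as a covariate, 72 genes were called, 50 of them among the 75. The 25 not called then included Actc1 (adjusted p = 0.145), Smox (0.128), Mettl21c (0.0868), Golga7b (0.0677), Odf3l2 (0.107), Klf2 (0.154), Meg3 (0.126), Lrrc48 (0.181), Smyd2 (0.0898), Dnase1 (0.0740), Aldh1a2 (0.0582), Aldh6a1 (0.0582), Wfikkn2 (0.0577) and Mast4 (0.0525). Their log2 fold changes kept their direction, and over the 25 genes the size was 0.761 to 1.14 times that without the covariate. Actc1 was at 2.68, Smox at 1.18, Golga7b at 1.38, Odf3l2 at -2.20 and Wfikkn2 at -0.70 with it. The covariate itself had no overlap between the groups. Control libraries ranged from -1.92 up to -1.43, whereas no transgenic library exceeded -2.96. Because it differs with genotype, this fit cannot separate clock phase from the transgene. Whether phase had a part in these changes was not tested.

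Interferon-response genes had 22 of 23 log2 fold changes above 0 (median 0.33), with 0 called in limma and edgeR, 1 in DESeq2 and 7 at an unadjusted p under 0.05. Their summed level was 251 CPM in transgenic replicate 2, 186 and 165 CPM in replicates 1 and 3, and 141 to 169 CPM in the controls. Cd28, a T-cell costimulatory receptor gene, fell from 5.59, 6.75 and 5.83 CPM to 1.70, 2.99 and 2.54 CPM (-1.06 ± 0.19, limma adjusted p = 0.00966). It lost its call without transgenic replicate 1 or control replicate 2 (adjusted p up to 0.0699). The other 16 tested leukocyte markers lay above 0, with a list median of 0.29 and overlapping sums of 312 to 412 and 252 to 409 CPM. The T-cell genes Cd3e, Cd3g, Cd4 and Cd8a were not analysed here. Adipocyte markers summed to 3715 to 5875 CPM against 2700 to 3859 CPM, with 4 of 11 above 0 and 7 below (median -0.02). Adipoq lay at 28.6 to 38.2 against 21.96 to 59.59 CPM, Lep at 31.6 to 42.1 against 21.4 to 69.3 CPM, both with overlap. Plin1 overlapped as well, at 14.85 to 21.0 against 16.4 to 32.2 CPM. These genes make up little of the sum, which other members carry, so it is not read as a level of adipocytes. Limma, edgeR and DESeq2 called 0 of 11 (1 at an unadjusted p under 0.05). Schwann cell and myelin genes summed to 175 to 241 CPM against 209 to 354 CPM, with 11 of 12 below 0 (median -0.33), 0 called by the 3 tools and 1 at an unadjusted p under 0.05. Sums of fibroblast and matrix genes overlapped at 4150 to 5499 and 4261 to 6717 CPM, and 0 of 22 were called by the 3 tools, with 0 at an unadjusted p under 0.05. The part of these cell types in the changes above was not tested.

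**Figure D4:**
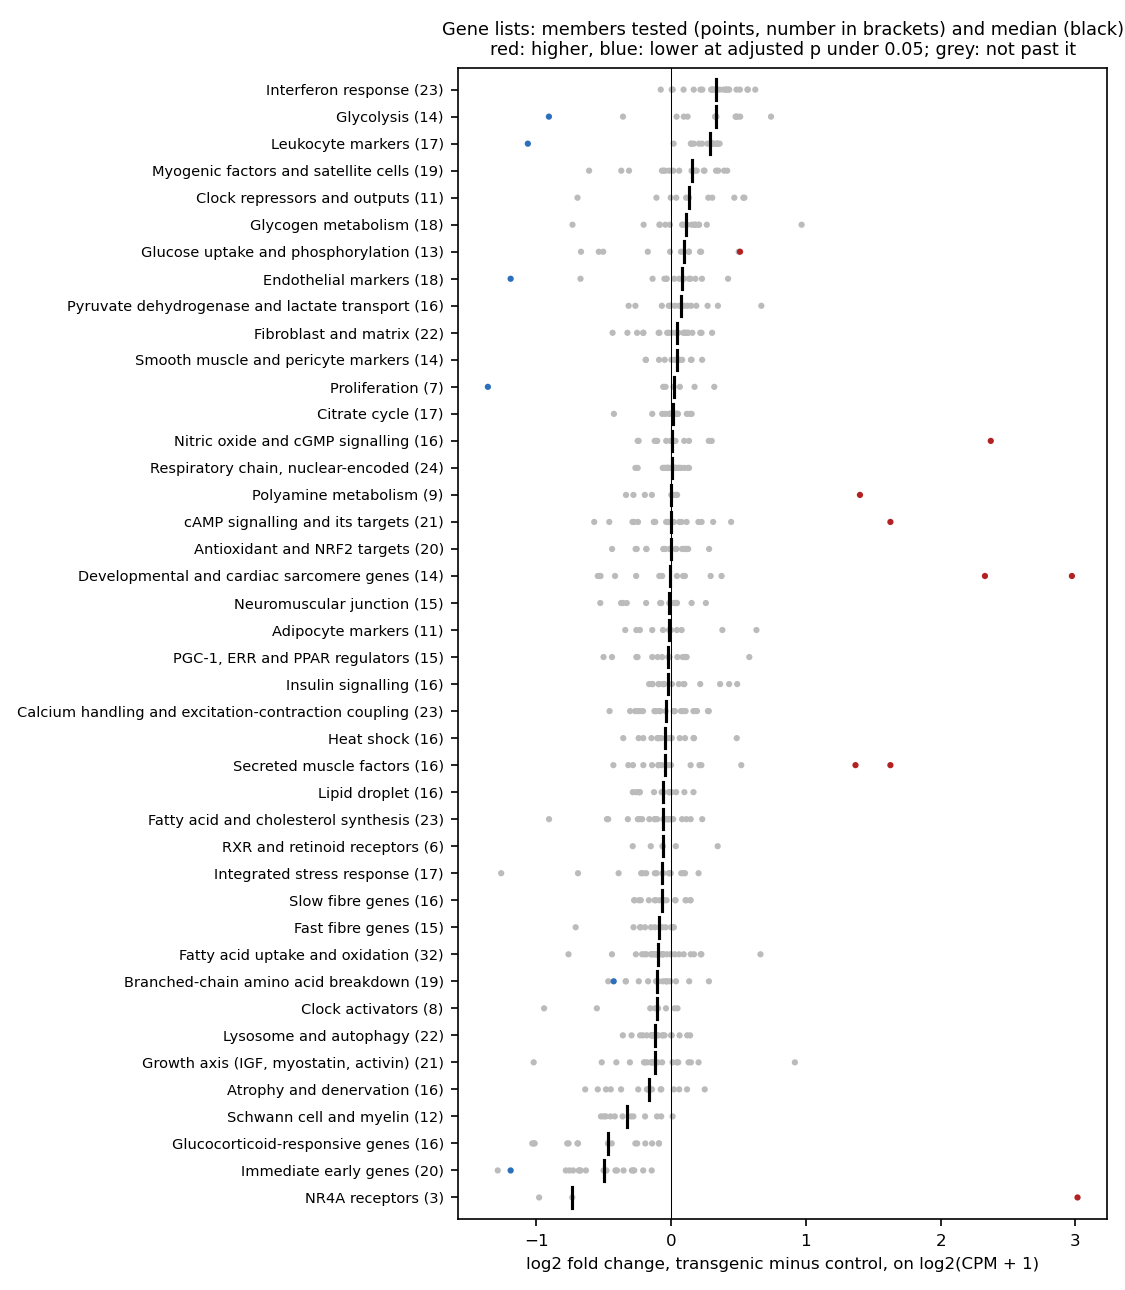
Log2 fold change (transgenic minus control) of the tested members of each gene list, with a point per gene, the number tested in brackets and the median as a black tick; red is called higher, blue called lower and grey not called. No list holds more than 2 called genes, and the early response and glucocorticoid-responsive lists lie below 0 throughout.

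The second wild-type HFD group gave a reference for the direction of the called genes. In 61 of the 75 the WT-HFD mean was nearer to the control than to the transgenic mean. The same share over all tested genes was not computed, and the 75 were picked for their gap between transgenic and control muscle. The count is therefore a description only. In 14 it was nearer to the transgenic mean: Nab1, Larp6, Zc3h8, Eif4e and Hk2 among the higher genes, and Mast4, Lrtm1, Prss55, Baiap2l2, Ppp1r1a, Htra4, Klf2, Rasd2 and A830010M20Rik among the lower. Mast4, a microtubule-associated kinase gene, stood at 106, 112 and 105 CPM in transgenic and 162, 157 and 154 CPM in control muscle (-0.55 ± 0.10, limma adjusted p = 0.00883), while WT-HFD muscle averaged 74.1 ± 3.2 CPM. Rasd2 averaged 62.2 ± 9.7 CPM in WT-HFD muscle, between 118 ± 14 CPM in control and 40.0 ± 3.0 CPM in transgenic muscle. For Ostn the WT-HFD mean was 45.2 ± 10 CPM and for Mrvi1 11.6 ± 2.0 CPM, near their controls. The labels do not say in what the WT-HFD and HFD-WT animals differ, so these levels are given as a description, with no test between them.

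**Figure D5:**
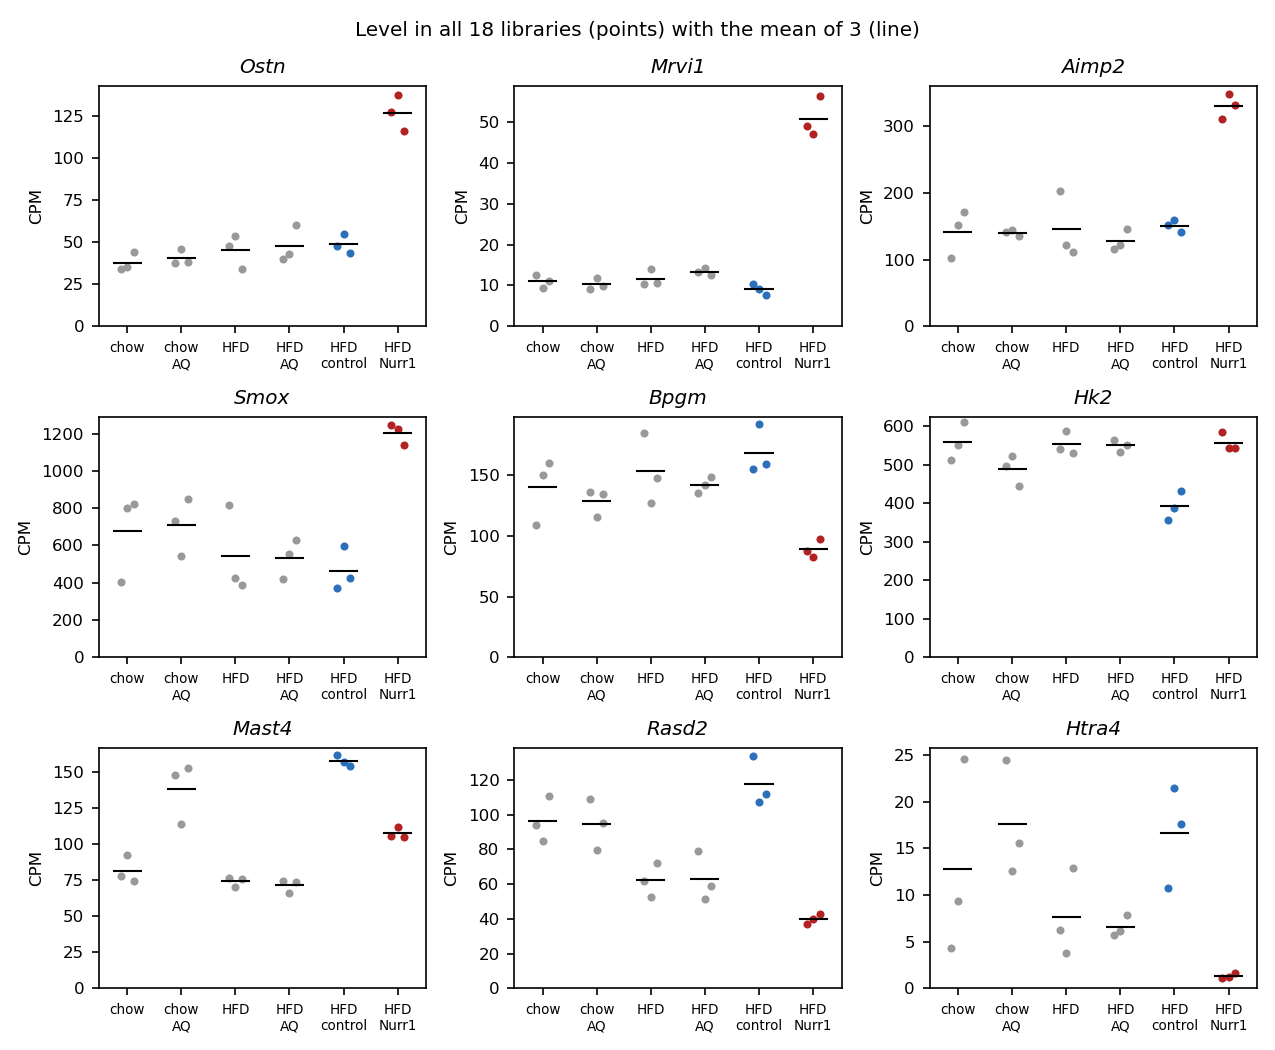
CPM on a linear y axis in all 18 libraries for 9 called genes, with a point per library and a line for the mean of 3; red is the transgenic group, blue its controls and grey the 4 groups of wild-type mice on chow or HFD with and without AQ. Ostn, Mrvi1 and Aimp2 stand apart in the transgenic group, whereas Hk2 is lowest in the HFD-WT controls and Mast4 is lower in the WT-HFD group than in transgenic muscle.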

How the data were processed

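RNA of skeletal muscle (TRIzol and 50-base single-end sequencing, per the labels' protocols) gave 18 libraries in 6 groups of 3. The authors deposited a signal per gene and library, a CPM scaled per library, for 12558 genes. TopHat2 2.0.12, edgeR and the builds GRCm38 and mm10 are named in the submitters' processing notes. No source used here names the counting tool, annotation or strand setting. All values were whole reads (100% within 1e-06) times a factor per library, 10404895 to 16082994 reads. Reads per library set the precision of low genes, and read floors cover counting error only.

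The main test was limma 3.58.1 (R 4.3.3; trend, two-sided) on log2(CPM + 1) with all 6 groups in 1 fit (12 residual degrees of freedom). A gene was tested if 3 or more libraries held 1 CPM or more, and p-values were Benjamini-Hochberg adjusted with a threshold of 0.05. The pseudocount of 1 understates changes of low genes, and fold changes come with their standard error (SE). The labels call the libraries biological replicates without naming animals, so p-values measure the spread between these samples, which may be technical. The recovered reads were also tested with edgeR 4.0.16 (quasi-likelihood) and DESeq2 1.42.0. Only the limma fit was tested on simulated data, and the edgeR and DESeq2 fits were not. No pair of libraries within a group agreed within sampling noise (chi-square per degree of freedom at least 8.07). Symbols were matched to GENCODE M21 (12024 directly, 465 through older symbols).

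The comparison, its 42 gene lists and the naming rule were chosen with earlier results of these data known. Any called gene could be named. Values per library were chosen for the 20 largest increases and 15 largest decreases among called genes without overlap, with a higher mean of at least 2 CPM and no unnamed models, for up to 4 called members of a list or else its 2 with the smallest p, and for marker genes and neighbours where a result turned on them. Groupings by function beyond the lists were made after the values were seen. Most genes outside the rule are marked as looked at after their values were seen. Unmarked genes outside it include Mast4, Aldh1a2, Dnase1, Gys2, Wfikkn2 and Dbp. Alternatives were other pseudocounts, filters and scalings, a fit of 2 groups, a replicate block, array weights, the count tests, a GC correction, a clock covariate and leaving out each library.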

Additional observations from a re-analysis of the deposited data

How the results depend on the processing

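The 75 called genes became 121 with array weights and 171 with DESeq2 on the recovered reads. Leaving out a single library gave 43 to 72 called genes, the fewest without transgenic replicate 2 (43) or 1 (46). The other alternatives gave 57 to 110. In all, 31 of the 75 were called in each of the 20 alternatives in which they were tested, and 33 in each of the 6 that leave out a library. The Nr4a2 log2 fold change ranged from 2.16 to 3.58, and passed in all 20. Plain CPM scaling called 101 genes, 70 higher and 31 lower, and moved the median of all genes to 0.03. Signs were compared only for the called genes, the genes named from the lists and the NR4A genes. Among these a change of sign occurred for 2 uncalled genes, and the cause was not tested. They were Per2 with the clock covariate (-0.14) and Atp2a2 without control replicate 1 (0.028, with a range of -0.47 to 0.028 over the omissions). The replicate block gave 110 called genes within the 6 libraries (59 of the 75) and 75 over all 18 (61 of the 75). Libraries of the same number correlated at 0.07, 0.01 and 0.07, and transgenic replicate 2 correlated best with control replicate 1 (0.06), so the numbers were not taken as pairs. Depth limits genes with few reads, such as Dnase1 with 2 to 4 reads in transgenic libraries.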

Other observations

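Among the 48 genes called higher, transgenic replicate 2 was the highest of the 3 transgenic libraries in 25, replicate 1 in 11 and replicate 3 in 12. Nr4a2 itself was highest in replicate 2 (30.1 CPM). Among the 27 genes called lower, the lowest transgenic library was replicate 1 in 12, replicate 2 in 10 and replicate 3 in 5. The same shares over all tested genes were not computed, so these counts are a description only. A relation to the level of Nr4a2 was not tested. Between an adjusted p of 0.05 and 0.1 lay 43 further genes.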
